A study of Mus musculus with 8 samples.

Results

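The annexins are a family of proteins that bind phospholipid membranes in the presence of calcium. The 8 annexin genes described here (Anxa1, Anxa2, Anxa3, Anxa4, Anxa5, Anxa6, Anxa7 and Anxa11) were chosen by their symbols, with the measured differences between the fractions below already known, and in particular that of Anxa3. They are 8 of 12 annexin rows in a table of 23284 genes, and all 8 were among the 13300 genes with enough counts to test. The other annexin rows were Anxa9, which was tested, and Anxa8, Anxa10 and Anxa13, which were not. Because the fractions were compared before the genes were chosen, their differences are given as descriptions of these libraries and not as tests of a prediction.

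RNA was sequenced from LSK cells, the lineage marker-negative, c-Kit+ and Sca-1+ fraction of mouse bone marrow that holds haematopoietic stem and progenitor cells. All cells came from Hdc-GFP reporter mice on a C57BL/6 background, in which green fluorescent protein reports Hdc, whose product histidine decarboxylase converts histidine to histamine. Sorting by GFP gave 4 libraries of Hdc-GFPhi and 4 of Hdc-GFPlo LSK cells, made from 2000 cells apiece, and the labels name no treatment. The sources used here do not give the age or number of the mice, whether marrow was pooled, or how the reporter was built. The labels do not say that replicates came from separate mice, so the spread between these libraries, on which each error below rests, may in part be technical.

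An annexin has a conserved core, built of repeats that carry the calcium and lipid sites, and an N-terminal head that differs between members and decides which partners bind. When calcium rises, annexins move from the cytosol to membranes rich in acidic lipids such as phosphatidylserine, where they take part in vesicle traffic, membrane repair and, for Anxa1, the damping of inflammation. In blood cells they are best known from neutrophils, monocytes and platelets.

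Totals were 21041170 to 22470121 counts in the Hdc-GFPhi libraries and 16726179 to 23051277 in the Hdc-GFPlo libraries. Levels are in CPM, counts scaled to a common library size with edgeR's TMM factors. The transcript of Hdc itself was at 13.1, 10.5, 14.5 and 10.1 CPM in Hdc-GFPhi replicates 1 to 4, against 12.8, 13.4, 11.3 and 10.9 CPM in Hdc-GFPlo replicates 1 to 4. These overlapped, and no difference in Hdc RNA was called between the GFP gates (log2 fold change -0.01, 95% interval -0.39 to 0.37, adjusted p = 0.995). Kit had a mean of 1460 CPM in Hdc-GFPhi, against 1195 CPM in Hdc-GFPlo. Ly6a, which encodes Sca-1, had means of 125 CPM in Hdc-GFPhi, against 119 CPM in Hdc-GFPlo. Cd8a had no counts, and Cd3e had a total of 0 counts over the Hdc-GFPhi libraries and 7 over the Hdc-GFPlo libraries together. But the lineage gene Itgam (86.5 CPM in Hdc-GFPhi, 114 CPM in Hdc-GFPlo) was detected in both fractions. None of 7 tested genes, those of the sort together with Ly6e, a relative of Ly6a, was called by edgeR. Of these 7, 2 were at an unadjusted p under 0.05, and the median log2 fold change was -0.23. DESeq2 called 1 lower and voom none. Ly6e, which is not a marker of the sort, was among those 2 and gave that median (-0.23, adjusted p = 0.452). Hdc-GFPhi replicate 4 lay at one end of the first principal component, and Hdc-GFPlo replicate 3 and Hdc-GFPhi replicate 2 lay about equally far out at opposite ends of the second. Hdc-GFPhi replicate 4 and Hdc-GFPlo replicate 3 also had the fewest detected genes of their fractions (14856 and 15252). They are the pair of libraries said below to stand apart. Hdc-GFPhi replicate 2 had fewer detected genes (15215) than Hdc-GFPlo replicate 3 but was not put in the pair. Of all tested genes, 1449 (10.9%) had an unadjusted p under 0.05, which is the background for the counts at that threshold below.

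Of the 8 annexins, Anxa3 was called lower in Hdc-GFPhi, and the fraction means of each of the others differed by at most 1.14-fold. Anxa3 fell to 9.75 ± 1.37 CPM in Hdc-GFPhi, against 18.3 ± 2.24 CPM in Hdc-GFPlo (SD over 4 libraries in each), which is 1.87-fold lower. In the edgeR fit across all genes, 1 member was called lower (adjusted p under 0.05), where 0.707% of all tested genes were called lower, and no member was called higher, where 0.241% were; Anxa3 was the 1 member at an unadjusted p under 0.05, and DESeq2 and voom also called 1 member. The fractions did not overlap for 1 member, which was lower in Hdc-GFPhi, where 3.54% of tested genes did not overlap and were lower and 3.38% did not overlap and were higher. The median log2 fold change of the 8 members (Hdc-GFPhi over Hdc-GFPlo) was 0.03, with 4 above 0 and 4 below, and the median of all tested genes was -4.5e-04. Since Anxa3 was known when the members were chosen, nothing is read from these counts.

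**Figure D1:**
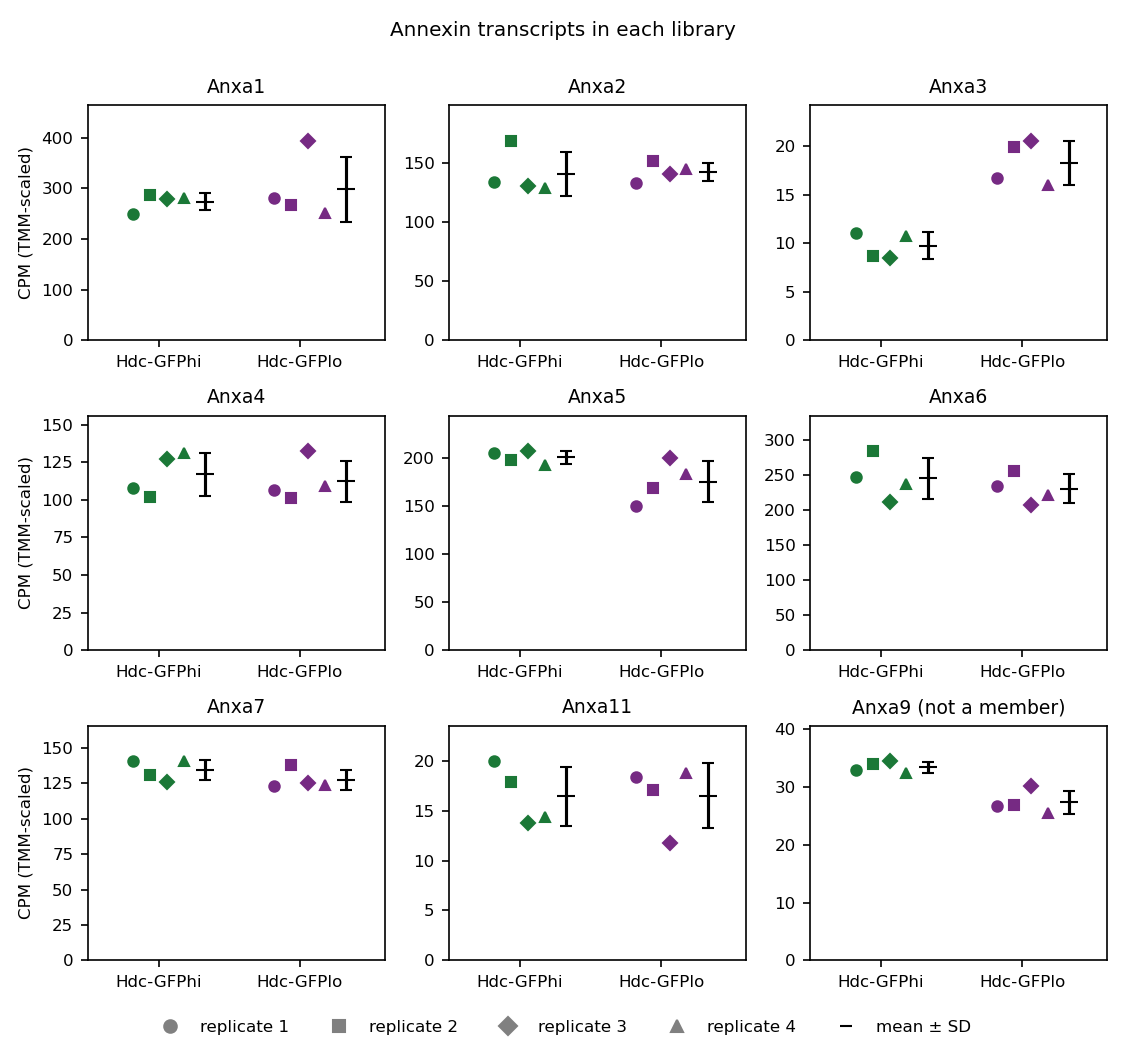
CPM (y axis, linear from 0, scaled by TMM) of the 8 annexin members and Anxa9 in each library, with Hdc-GFPhi at left, Hdc-GFPlo at right, a symbol for each replicate and the mean ± SD in black (n = 4 each). The Hdc-GFPhi points of Anxa3 (8.46 to 11.1 CPM) lie below all its Hdc-GFPlo points (16.0 to 20.5 CPM), and the points of the other members overlap.

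Annexin genes are spread over the mouse genome, with Anxa3 on chromosome 5, Anxa1 on 19, Anxa2 on 9, Anxa4 on 6, Anxa5 on 3, Anxa6 on 11, and Anxa7 and Anxa11 on 14 (GENCODE M21). Anxa3 encodes an annexin that is abundant in neutrophils and has been linked in human neutrophils to the aggregation of granules. It had 11.1, 8.68, 8.46 and 10.8 CPM in Hdc-GFPhi replicates 1 to 4, from 186 to 248 counts, against 16.8, 19.9, 20.5 and 16.0 CPM in Hdc-GFPlo replicates 1 to 4, from 315 to 379 counts. All Hdc-GFPhi libraries were below all Hdc-GFPlo libraries. Of its 3643 exon bases, 112 also lie in Gm42603 on the same strand, whose reads could not be told apart there. The log2 fold change was -0.91 ± 0.17 (SE), with a 95% interval of -1.27 to -0.54 and an adjusted p of 0.0229. Anxa3 had the 80th smallest p and the 283rd lowest log2 fold change of the 13300 tested genes. The coefficient of variation between libraries was 14.0% in Hdc-GFPhi and 12.3% in Hdc-GFPlo, where counting alone would give 6.80% and 5.35%. The direction was the same in all 17 processing alternatives (log2 fold change -0.97 to -0.83), but the call was lost in 6. It was lost without Hdc-GFPhi replicate 2 (adjusted p = 0.0644) or 3 (0.0886), without Hdc-GFPlo replicate 1 (0.0658), 2 (0.0575) or 3 (just above 0.05), and when the pair of libraries that stood apart was left out (0.0641). Fewer cells with the transcript and less transcript per cell cannot be told apart in such bulk libraries, here and for all genes below.

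**Figure D2:**
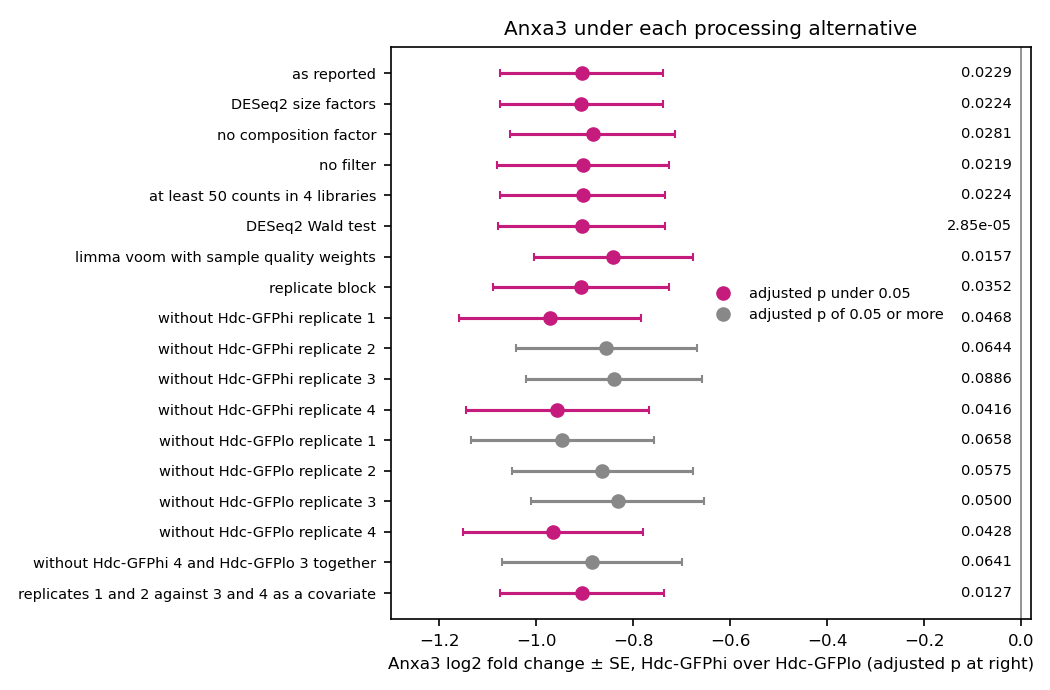
Log2 fold change of Anxa3 (x axis, Hdc-GFPhi over Hdc-GFPlo, points with SE bars) as reported and under each of 17 alternatives (y axis), with the adjusted p at right. All points lie between -0.97 and -0.83, and 6 alternatives have an adjusted p of 0.05 or more.

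Anxa1, Anxa2 and Anxa5, annexins that are also found outside the cell, were not called. Anxa1 (lipocortin), which is induced by glucocorticoids and limits inflammation through formyl peptide receptors, had 249, 287, 278 and 280 CPM in Hdc-GFPhi replicates 1 to 4, against 281, 266, 393 and 252 CPM in Hdc-GFPlo replicates 1 to 4. Hdc-GFPlo replicate 3 was far above the other libraries. The log2 fold change of Anxa1 was -0.12 (95% interval -0.41 to 0.17), and without Hdc-GFPlo replicate 3 it was 0.05. Anxa2, which forms a complex with S100a10 at the plasma membrane and binds plasminogen and its activator, had 134, 169, 131 and 129 CPM in Hdc-GFPhi, against 133, 152, 141 and 145 CPM in Hdc-GFPlo. Replicate 2 was the highest library in each fraction. Its log2 fold change was -0.02 (-0.25 to 0.22).

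Anxa5, which binds phosphatidylserine on dying cells and forms lattices on membranes, had 205, 198, 207 and 193 CPM in Hdc-GFPhi, against 150, 168, 200 and 183 CPM in Hdc-GFPlo. The Hdc-GFPhi libraries were within a narrow range (SD 6.61 CPM), and Hdc-GFPlo replicate 3 lay inside it while the other Hdc-GFPlo libraries lay below. The log2 fold change was 0.19 (-0.03 to 0.42, adjusted p = 0.554), the highest of the members. It was 0.28 without Hdc-GFPlo replicate 3 (adjusted p = 0.202) and 0.29 without the pair that stood apart (0.221), and Anxa5 was not called in any of 17 alternatives (adjusted p = 0.188 to 0.826).

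Anxa4, Anxa6, Anxa7 and Anxa11, which act inside the cell, were also not called. Anxa4, which associates with membranes of the secretory pathway, was at 117 ± 14.3 CPM in Hdc-GFPhi, against 112 ± 13.7 CPM in Hdc-GFPlo. It was highest in Hdc-GFPhi replicates 3 and 4 (127 and 131 CPM) and Hdc-GFPlo replicate 3 (132 CPM), and lay between 101 and 109 CPM in the other libraries. Anxa6, which carries a duplicated annexin core and acts in endosome traffic, was at 245 ± 29.7 CPM in Hdc-GFPhi, against 230 ± 20.7 CPM in Hdc-GFPlo. It was highest in replicate 2 of each fraction (284 CPM in Hdc-GFPhi, 257 CPM in Hdc-GFPlo) and lowest in replicate 3 of each (212 and 208 CPM). Anxa7 (synexin), known for promoting fusion of secretory granules, was at 141, 131, 126 and 141 CPM in Hdc-GFPhi replicates 1 to 4, against 123, 138, 125 and 124 CPM in Hdc-GFPlo replicates 1 to 4. The fractions overlapped through Hdc-GFPlo replicate 2.

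Anxa11, whose long head binds Pdcd6 and which tethers RNA granules to lysosomes, was one of the scarce members. It had 19.9, 17.9, 13.7 and 14.3 CPM in Hdc-GFPhi replicates 1 to 4, against 18.4, 17.1, 11.8 and 18.8 CPM in Hdc-GFPlo replicates 1 to 4. The fractions overlapped, with the lowest value in Hdc-GFPlo replicate 3. Log2 fold changes were 0.06 (95% interval -0.20 to 0.32) for Anxa4, 0.09 (-0.15 to 0.33) for Anxa6, 0.08 (-0.12 to 0.28) for Anxa7 and -0.01 (-0.42 to 0.41) for Anxa11. Without the pair of libraries that stood apart they were 0.10 for Anxa4, 0.07 for Anxa6, 0.06 for Anxa7 and -0.06 for Anxa11, none of them called. The intervals of 7 of the 8 members included 0. They do not show that these levels are equal. For Anxa7 the interval leaves room for a difference of up to 0.28 on the log2 scale, and for Anxa11, with 213 to 447 counts a library, of up to 0.42.

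**Figure D3:**
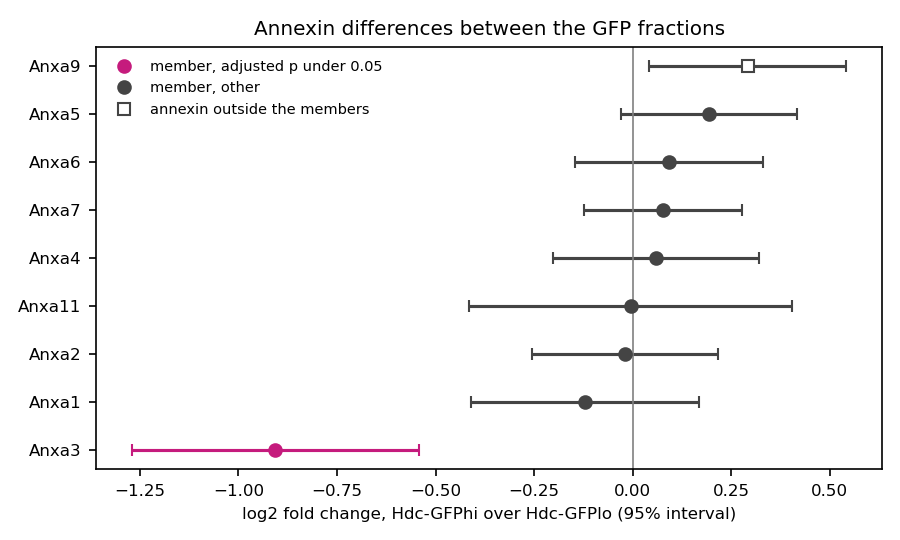
Log2 fold change (x axis, Hdc-GFPhi over Hdc-GFPlo) with 95% intervals for the 8 annexin members (circles) and Anxa9 (open square), from the fit across 13300 genes. Anxa3 lies at -0.91, and the other members lie between -0.12 and 0.19 with intervals that include 0.

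Of the annexins outside the members, Anxa9 was detected in every library. The human form of this annexin is known for a core whose calcium sites are not functional. Anxa9 had 32.9, 34.1, 34.5 and 32.4 CPM in Hdc-GFPhi replicates 1 to 4, against 26.8, 26.9, 30.1 and 25.5 CPM in Hdc-GFPlo replicates 1 to 4. All Hdc-GFPhi libraries were above all Hdc-GFPlo libraries, by a small margin over Hdc-GFPlo replicate 3. The log2 fold change was 0.29 ± 0.12 (SE; 95% interval 0.04 to 0.54), which was not called (adjusted p = 0.354) and was not called in any of 17 alternatives (adjusted p = 0.129 to 0.631). Anxa8 and Anxa10 had no counts in any library, and Anxa13 had 1 count, in Hdc-GFPhi replicate 4.

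To compare levels between members, CPM was divided by transcript length in kilobases. On this scale Anxa1 was the highest member in all 8 libraries, with means of 163 CPM per kb in Hdc-GFPhi and 178 in Hdc-GFPlo. Anxa5 (116 in Hdc-GFPhi, 101 in Hdc-GFPlo), Anxa6 (98.6 and 92.5) and Anxa2 (97.3 and 98.6) came next and changed places between libraries, so their order is within the spread. Anxa4 (57.6 and 55.3) and Anxa7 (46.3 and 43.9) followed in that order in every library. Anxa11 (6.87 and 6.89) and Anxa3 (6.11 and 11.5) were lowest, 26.8-fold (Hdc-GFPhi) and 25.8-fold (Hdc-GFPlo) between the highest and the lowest member. Anxa3 was below Anxa11 in Hdc-GFPhi replicates 1 to 3, and above it in Hdc-GFPhi replicate 4 and in all 4 Hdc-GFPlo libraries. The order of Anxa4 and Anxa7, and that of Anxa3 and Anxa11, depend on the length scaling. In CPM, Anxa7 had higher means (135 in Hdc-GFPhi, 128 in Hdc-GFPlo) than Anxa4 (117 and 112). Anxa3 was then below Anxa11 in all 4 Hdc-GFPhi libraries and in Hdc-GFPlo replicates 1 (16.8 against 18.4 CPM) and 4 (16.0 against 18.8 CPM). It was above Anxa11 in Hdc-GFPlo replicates 2 (19.9 against 17.1 CPM) and 3 (20.5 against 11.8 CPM).

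The summed level of the 8 members was 592 ± 22.2 CPM per kb in Hdc-GFPhi, against 588 ± 47.5 CPM per kb in Hdc-GFPlo (SD, n = 4 each), and the fractions overlapped. Anxa3 made up 1.03% of that sum in Hdc-GFPhi (0.871% to 1.20%) and 1.95% in Hdc-GFPlo (1.79% to 2.15%). Anxa1 made up 27.6% in Hdc-GFPhi and 30.0% in Hdc-GFPlo, and the Hdc-GFPlo value ranged up to 35.7% in replicate 3.

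Within a fraction the members varied in different directions. In Hdc-GFPlo replicate 3, Anxa1 was 0.42 above and Anxa11 0.46 below the mean of the fraction in log2 CPM, and Anxa4 and Anxa5 were 0.24 and 0.20 above. In Hdc-GFPhi replicate 2, Anxa2 and Anxa6 were 0.27 and 0.22 above the mean, and Anxa4 was 0.19 below. Anxa7 was the steadiest member over both fractions, with coefficients of variation of 5.41% in Hdc-GFPhi and 5.47% in Hdc-GFPlo. Anxa1 had 6.08% in Hdc-GFPhi and 21.6% in Hdc-GFPlo, and Anxa5 had 3.30% and 12.0%.

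**Figure D4:**
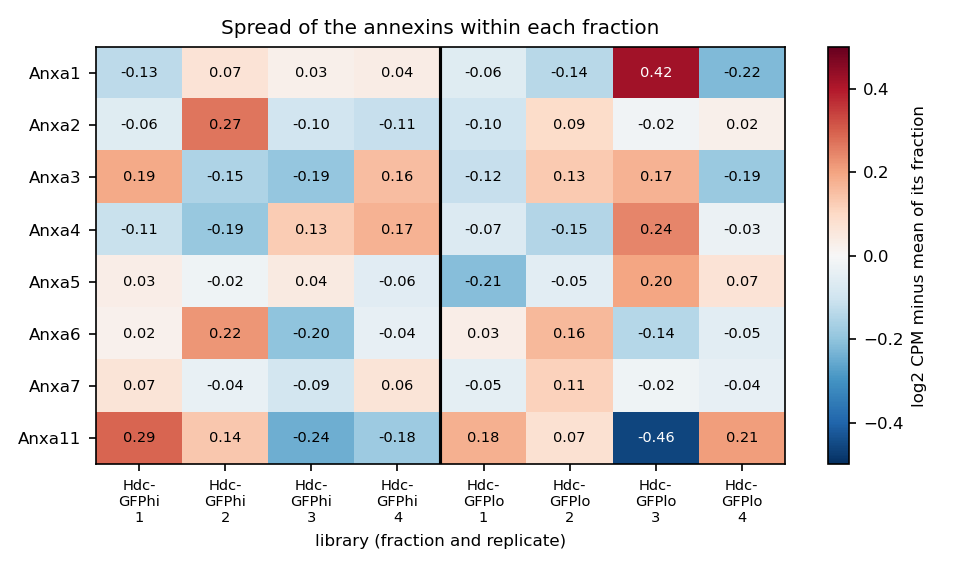
Deviation of each library (columns) from the mean of its own fraction in log2 CPM for the 8 annexin members (rows), red above and blue below the mean, with Hdc-GFPhi left of the line. The largest deviations are in Hdc-GFPlo replicate 3, with Anxa1 at 0.42 and Anxa11 at -0.46.

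The genes of known annexin partners were not called. Of 7 tested partners, edgeR, DESeq2 and voom called 0, with 0 at an unadjusted p under 0.05 in edgeR, and 5 had a log2 fold change below 0 and 2 above, with a median of -0.11. S100a10, the partner of Anxa2, was at 79.1 ± 16.8 CPM in Hdc-GFPhi, against 82.1 ± 19.1 CPM in Hdc-GFPlo. It was highest in the libraries that stood apart, at 104 CPM in Hdc-GFPhi replicate 4 and 111 CPM in Hdc-GFPlo replicate 3, against 67.1 to 76.0 CPM in the other libraries. S100a11, which binds Anxa1 and Anxa2, was highest in the same libraries (86.7 and 84.5 CPM). Ahnak, a very large protein that binds the complex of Anxa2 and S100a10, was lowest in them (39.1 and 38.7 CPM, against 49.4 to 101 CPM in the others). Anxa2 itself was at its lowest, 129 CPM, in Hdc-GFPhi replicate 4 and at 141 CPM in Hdc-GFPlo replicate 3. What these libraries share was not tested. The partners with the smallest p were Pdcd6, a calcium sensor that binds Anxa7 and Anxa11 (log2 fold change -0.19, 95% interval -0.48 to 0.10), Sri (sorcin), which binds Anxa7 (-0.11, -0.39 to 0.17), and S100a4 (-0.18, -0.71 to 0.34).

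Genes for receptors and pathways downstream of the members, and those of the separate copine family, were not called by edgeR either. Fpr2 and Fpr1, receptors for Anxa1 and its peptides, were scarce, with log2 fold changes of -0.49 (95% interval -1.11 to 0.12) and -0.50 (-1.09 to 0.10), while the other 4 formyl peptide receptor genes of the table had no counts. No tool called either receptor, and 0 were at an unadjusted p under 0.05 in edgeR. Of the plasminogen system on which Anxa2 acts, the urokinase receptor Plaur (24.6 CPM in Hdc-GFPhi, 25.2 CPM in Hdc-GFPlo) and 5033414D02Rik, an older symbol of the plasminogen receptor Plgrkt by RefSeq synonyms (86.1 CPM in Hdc-GFPhi, 82.5 CPM in Hdc-GFPlo), were the 2 tested genes. Their median log2 fold change was 0.02, with 0 called by any tool and 0 at an unadjusted p under 0.05. Plat, the tissue plasminogen activator, had 1 count in each fraction. Of 6 tested copines, another family of calcium-dependent membrane binders, edgeR and voom called 0 and DESeq2 called 1 (Cpne2), with 1 at an unadjusted p under 0.05 and a median of -0.14. Cpne2 stood at 118, 120, 118 and 136 CPM in Hdc-GFPhi, against 74.6, 88.7, 96.2 and 104 CPM in Hdc-GFPlo. These did not overlap (log2 fold change 0.43, adjusted p = 0.123), and Cpne2 was called in 2 of 17 alternatives. Cpne3 (-0.21) and Cpne5 (-0.60) were next by p.

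Genes that expose or recognise phosphatidylserine, the lipid that Anxa5 binds, gave no call in edgeR, with 4 of 11 tested exposure genes (median 0.09) and 3 of 9 tested recognition genes (median 0.15) at an unadjusted p under 0.05. DESeq2 and voom each called 1 of either list, Atp8b4 and Axl. Atp8b4, a P4-type ATPase of the family that flips such lipids inward, was at 48.0, 46.9, 52.1 and 32.3 CPM in Hdc-GFPhi, against 91.1, 108, 56.0 and 80.4 CPM in Hdc-GFPlo. The groups did not overlap, though Hdc-GFPlo replicate 3 came close to the Hdc-GFPhi range. Its log2 fold change was -0.90 ± 0.20 (adjusted p = 0.0544), and it was called in 8 of 17 alternatives, among them that without the pair of libraries that stood apart. The scramblase genes Plscr4 (0.55, adjusted p = 0.263) and Plscr1 (0.32, adjusted p = 0.409) were next by p. Axl, a receptor for cells marked by phosphatidylserine, was at 32.0 ± 6.42 CPM in Hdc-GFPhi, against 19.8 ± 3.27 CPM in Hdc-GFPlo, with no overlap (log2 fold change 0.70, adjusted p = 0.0854), and was called in 4 of 17. Mfge8, a bridging protein for the same lipid, was at 181 CPM in Hdc-GFPhi, against 149 CPM in Hdc-GFPlo (0.27, adjusted p = 0.290), and Tyro3, a receptor related to Axl, was scarce (1.29, adjusted p = 0.449). Of 11 tested genes of membrane repair, 6 were below 0 and 5 above, with a median of -0.01. No tool called any, 0 were at an unadjusted p under 0.05 in edgeR, and the smallest p were those of Vps4b (-0.16), Chmp4b (-0.25) and Tsg101 (-0.21), genes of the ESCRT machinery that closes membrane wounds.

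Marker genes of other blood cells were measured beside Anxa3. Of 13 tested granulocyte markers, 12 had a log2 fold change below 0, with a median of -0.41, but edgeR called 0, with 3 at an unadjusted p under 0.05, and DESeq2 and voom each called Ctsg. Their summed level was 2275 to 2848 CPM in the Hdc-GFPhi libraries and 2696 to 3441 CPM in the Hdc-GFPlo libraries, which overlapped. The nearest to Anxa3 was Ctsg, a protease of neutrophil granules, with 6.60, 4.53, 5.48 and 6.77 CPM in Hdc-GFPhi, against 10.2, 10.8, 12.2 and 9.84 CPM in Hdc-GFPlo (log2 fold change -0.88, adjusted p = 0.0596). Fcnb (-0.86, adjusted p = 0.238) and S100a9 (-0.50, adjusted p = 0.437) were next by p. Of 11 tested monocyte and macrophage markers, Ly6c2 (-1.17), Ccr2 (-1.36) and Clec12a (-1.64) fell and none rose, with a list median of -0.13 and the same 3 calls without the pair of libraries that stood apart. Ly6c2 and Clec12a were called in all 17 alternatives and Ccr2 in 11. The summed level of the whole monocyte and macrophage list was 95.5 to 134 CPM in Hdc-GFPhi, against 158 to 237 CPM in Hdc-GFPlo, with no overlap.

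Lymphoid progenitor markers fell and some stem cell markers rose in Hdc-GFPhi. Of 10 tested lymphoid progenitor markers, Dntt, Il7r, Rag1, Rag2, Cd79a, Ebf1, Igll1, Vpreb1 and Ccr9 fell, 9 in all (10 called by DESeq2, 8 by voom), with a list median of -2.37 and summed levels of 1001 to 1364 CPM in Hdc-GFPhi, against 2250 to 3166 CPM in Hdc-GFPlo. Most of these sums came from Flt3 (mean 876 CPM in Hdc-GFPhi, 1236 CPM in Hdc-GFPlo) and Dntt (213 and 1066 CPM). Flt3 was not called by edgeR (log2 fold change -0.50, adjusted p = 0.0965). Without the pair of libraries that stood apart 9 were again called, but Ccr9 was not (adjusted p = 0.0817) and Flt3 was. Dntt, Il7r, Rag2, Cd79a and Vpreb1 were called in all 17 alternatives, Ebf1 and Ccr9 in 16, Rag1 in 10 and Igll1 in 6. Of 10 tested stem cell markers, 2 rose, among them Esam (0.88), and none fell (7 called by DESeq2, 6 by voom, and Esam in 12 of 17 alternatives), with a list median of 0.65 and summed levels of 1673 to 1988 CPM in Hdc-GFPhi, against 1077 to 1296 CPM in Hdc-GFPlo. Megakaryocyte markers (6 tested) had a median of 0.40, summed levels of 107 to 137 CPM in Hdc-GFPhi, against 74.5 to 110 CPM in Hdc-GFPlo, and no call in edgeR (2 at an unadjusted p under 0.05). DESeq2 called Itga2b (0.72) higher and voom none, and Gp9 (0.41) and Pf4 (0.40) were next by p. Of 4 tested mast and basophil markers no tool called any, and 0 were at an unadjusted p under 0.05. Cpa3 (-0.24), Mcpt8 (-0.32) and Prss34 (0.77) had the smallest p, and the summed level was 24.1 to 78.0 CPM in Hdc-GFPhi, against 19.8 to 107 CPM in Hdc-GFPlo, highest in the pair of libraries that stood apart. The part of any of these lineages in the difference of Anxa3 was not tested.

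**Figure D5:**
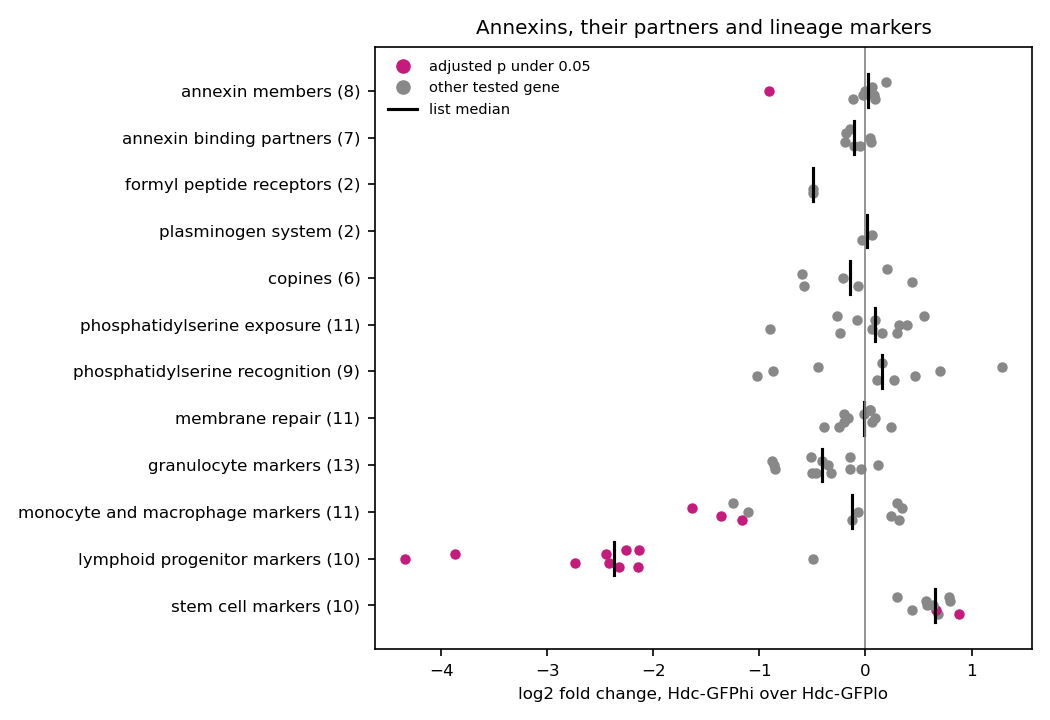
Log2 fold change (x axis, Hdc-GFPhi over Hdc-GFPlo) of each tested gene in the annexin members and 11 gene lists (y axis, number tested in brackets), with called genes in magenta and list medians as black lines. The annexin members other than Anxa3 lie near 0, while lymphoid progenitor markers have a median of -2.37 and stem cell markers one of 0.65.

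The genes whose profile over the 8 libraries was most like that of Anxa3 were found by the root mean square difference of centred log2 CPM among 11512 other genes. Ctsg was first (0.10), followed by Gpr18, a G protein-coupled receptor (0.14), and Gm885, by RefSeq synonyms an older symbol of the immunoglobulin-like receptor gene Milr1 (0.14), where the median gene was at 0.52. Gm885 was called lower (log2 fold change -0.88, adjusted p = 0.00743) and Gpr18 was not (-0.72, adjusted p = 0.109). The genes nearest to Anxa5 were Praf2 (0.059), Atp6v1g2 (0.059), a subunit of the vacuolar proton pump, and Gmpr (0.067), a reductase of guanine nucleotides, with a median gene at 0.26. None of these was called. Since Anxa3 was chosen with its difference between the fractions known, any gene near it shares that difference by construction.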

How the data were processed

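Read counts per gene symbol were deposited by the authors as whole numbers, not normalized. The build mm9, HTSeq 0.6.1, TopHat2 2.04, Bowtie2 and bcl2fastq 1.8.4 are named per the submitters' processing notes; the sources used here do not give their roles, the annotation or the strand setting. In the GENCODE M21 annotation, exons of Anxa2, Anxa3, Anxa4 and Anxa11 overlap those of 1 other gene, and exons of Anxa9 those of 2. Each overlapping gene shares 71 to 113 bases. Groups came from sample titles. Hdc-GFPhi replicate 4 has GFP+ in place of GFPhi in one label and was kept.

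Genes were kept by filterByExpr (13300 of 23284), scaled by TMM and tested in edgeR 4.0.16 (glmQLFit robust, glmQLFTest, R 4.3.3) with Benjamini-Hochberg adjustment over all genes. Called, rose and fell mean an adjusted p under 0.05. The steps were tested on simulated data. CPM per kb used the longest GENCODE M21 coding transcript. No libraries agreed within sampling noise (chi-square per degree of freedom at least 13.3). Counts without molecular identifiers include amplified copies.

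The members, gene lists and naming rule were chosen with earlier results of these data known. The rule named the members, other annexins, called or smallest-p genes of each list (up to 3 if none was called) and nearest profiles; S100a10, S100a11, Ahnak, Plat, Kit, Ly6a, Cd3e and Cd8a were named after their values were seen. A few genes that the rule names are not reported here. Alternatives were DESeq2 (1.42.0) size factors and Wald test, no composition factor, other filters, limma (3.58.1) voom, the replicate block and leaving out each library. Added after seeing the data were a fit without the pair of libraries that stood apart and one with a term for whether the replicate number was 1 or 2, or 3 or 4.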

Additional observations from a re-analysis of the deposited data

Results flagged for a closer look

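In 2 of 16 sets of 4 libraries (8 members in each fraction), 1 library lay far from the other 3, where chance would pick out about 1 set in 20. Anxa2 was at 7.40 log2 CPM in Hdc-GFPhi replicate 2, against 7.02 to 7.07 in the other Hdc-GFPhi libraries, and without that library its log2 fold change was -0.12, not called. Anxa7 was at 7.11 log2 CPM in Hdc-GFPlo replicate 2, against 6.95 to 6.97 in the other Hdc-GFPlo libraries. Replicate 2 of the opposite fraction was the highest for Anxa2 as well (7.25) but not for Anxa7 (7.04).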

How the results depend on the processing

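Among all genes 126 were called, and the count was 404 with the DESeq2 Wald test, 276 with voom, 224 with the replicate block and 275 with a term for replicates 1 and 2 against the others, and 52 (without Hdc-GFPlo replicate 1) to 146 with 1 library left out (68 without Hdc-GFPhi replicate 3). The cause was not tested. The count of called members was 1, and 0 to 1 with 1 library left out, and 0 without the pair of libraries that stood apart, with fewer samples in each case. The sign of Anxa3, Anxa4, Anxa5, Anxa6 and Anxa7 was the same in all 17 alternatives. The log2 fold change of Anxa1 ranged from -0.19 to 0.054 with 1 library left out and was 0.041 without both libraries that stood apart. That of Anxa2 ranged from -0.12 to 0.023 with 1 library left out, and was 0.0042 with no composition factor and 0.027 without both. That of Anxa11 ranged from -0.12 to 0.079 with 1 library left out, and was 0.019 with no composition factor and 0.0011 with the replicate block. None of these 3 was called in any alternative. Same-numbered libraries of the fractions had correlated deviations of 0.38, 0.52, 0.11 and 0.096. Hdc-GFPhi replicates 1 and 2 correlated best with the Hdc-GFPlo library of the same number, and replicates 3 and 4 with Hdc-GFPlo replicates 4 and 3. With 1 pair below 0.1 the numbers were not taken as pairs, so the main fit does not model what same-numbered libraries may share. With the replicate block Anxa3 stood at -0.91 (adjusted p = 0.0352), and no member's call changed. Anxa3 and Anxa11, with 186 to 447 counts a library, had the fewest counts of the members, but both varied more between libraries than counting alone would give. For Anxa11 the coefficient of variation was 18.0% in Hdc-GFPhi and 19.5% in Hdc-GFPlo, where counting alone would give 5.24% and 5.58%.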
